A study of Mus musculus with 2 samples.

Results

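Heat-shock-high intraepithelial cells are the cells of a normal colon library in which transcripts of Hspa1a and Hspa1b, the genes of the inducible heat shock protein Hsp70, made up at least 0.5% of all transcripts counted. They were chosen by that value alone, so the levels of these 2 genes describe the choice and are not a result. Of the 9398 barcodes of the library, 9128 had at least 500 genes, at least 1000 unique molecular identifiers (UMIs, each standing for 1 captured transcript) and at most 10% mitochondrial UMIs. Among these, 742 were heat-shock-high, or 8.13% (exact Clopper-Pearson 95% interval 7.58 to 8.71), and the other 8386 served for comparison. Both libraries of the series together held 21535 cells passing the same filters.

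Cells labelled γδ T lymphocytes were profiled from mice of strain C57BL/6J aged 18 to 20 weeks, for which the labels name no further allele or agent. One library came from normal colon (IEL) and 1 from colon tumor (TIL), and the IEL library held the cells described here. Cells were collected from the 40%/70% interface of a Percoll gradient after tissue digestion, and transcript 3′ ends were sequenced in droplets. The protocol names tumor tissue for both samples, and neither a sort nor the number of mice is given. The IEL library had 69414155 UMIs over its barcodes. With 1 library per tissue there are no replicates, so no test was made. The intervals in brackets are exact 95% intervals. They take each UMI or cell as an independent draw and hold only the error of counting.

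Heat shock genes are switched on when proteins lose their fold, through heat shock factor 1 (Hsf1), which binds inverted repeats of a short sequence, the heat shock element. Hsp70 holds unfolded chains with the help of DnaJ cochaperones, which bring it substrates, and of exchange factors such as Hsp110 and Bag3, which release them. Hsp90 takes over partly folded clients, chaperonins fold chains in a closed chamber, and small heat shock proteins keep aggregates soluble. Intraepithelial γδ T cells are resident cytotoxic lymphocytes of the gut lining. Heat shock and immediate early genes are also known to be switched on in cells during tissue digestion.

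Promoter windows of 4 chaperone genes are shown because their transcripts were at least 2-fold higher in the heat-shock-high than in the other cells, and because the letters of the heat shock element lie in them. Each is the RefSeq window of GRCm38.p6 from 250 bases before to 50 bases after a start of transcription, on the strand of the gene. The first is that of Hsph1, the gene of Hsp110 (chr5:149636287-149636586, minus strand). The second is that of Hspe1 (chr1:55087898-55088197, plus strand), which lies over a window of its neighbour Hspd1 on the opposite strand. They are followed by Hspb1, a small heat shock protein (chr5:135887669-135887968, plus strand), and Bag3 (chr7:128523333-128523632, plus strand). Capitals mark matches to 3 alternating units of GAA and TTC set 2 bases apart in Hsph1 (1 match) and Hspe1 (2 overlapping matches, 4 units in a row), and matches to 2 such units in Hspb1 and Bag3. A further match to 2 units in Hsph1 is left in lower case.
Hsph1: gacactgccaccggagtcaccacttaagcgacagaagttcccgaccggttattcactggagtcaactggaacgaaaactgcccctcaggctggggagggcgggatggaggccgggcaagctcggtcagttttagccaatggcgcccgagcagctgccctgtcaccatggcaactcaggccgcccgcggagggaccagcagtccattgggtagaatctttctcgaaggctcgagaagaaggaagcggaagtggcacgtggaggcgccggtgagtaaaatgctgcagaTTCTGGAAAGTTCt
Hspe1: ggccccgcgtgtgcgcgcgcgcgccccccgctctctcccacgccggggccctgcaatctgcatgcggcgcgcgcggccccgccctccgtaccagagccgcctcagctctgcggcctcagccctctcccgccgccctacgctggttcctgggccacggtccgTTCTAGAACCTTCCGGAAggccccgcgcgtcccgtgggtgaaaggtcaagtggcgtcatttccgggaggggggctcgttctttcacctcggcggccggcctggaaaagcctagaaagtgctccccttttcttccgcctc
Hspb1: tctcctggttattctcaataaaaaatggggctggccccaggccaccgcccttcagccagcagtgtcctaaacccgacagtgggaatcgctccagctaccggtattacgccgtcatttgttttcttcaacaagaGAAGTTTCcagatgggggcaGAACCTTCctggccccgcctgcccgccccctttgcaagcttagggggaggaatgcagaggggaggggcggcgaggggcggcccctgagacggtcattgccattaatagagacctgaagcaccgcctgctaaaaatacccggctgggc
Bag3: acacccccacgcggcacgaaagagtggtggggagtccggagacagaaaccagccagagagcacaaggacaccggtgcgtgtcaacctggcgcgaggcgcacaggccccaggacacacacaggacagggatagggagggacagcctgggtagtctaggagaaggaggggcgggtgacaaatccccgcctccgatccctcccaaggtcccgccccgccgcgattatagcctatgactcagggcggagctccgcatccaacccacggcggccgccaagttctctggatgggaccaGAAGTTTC

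These letters were searched for in the windows of all genes. The form of 2 units was GAANNTTC or TTCNNGAA, each of which reads the same on both strands, and the form of 3 units was GAANNTTCNNGAA or its reverse complement TTCNNGAANNTTC, which holds the shorter form within it. Of 32851 single windows in the table, 15.1% held the shorter and 0.603% the longer form. Among measured genes (defined below), 4786 of 5935 had a window, and 14.0% of those held the shorter form. Of the 17 chaperone genes at least 2-fold higher in heat-shock-high cells, 14 had a window, 8 of them with the shorter form and 3 with the longer one (Hsph1, Hspd1 and Hspe1). The marked match of Hspd1 and Hspe1 is the same stretch of bases read on opposite strands, and is counted for both genes. Of the 44 other measured chaperone genes, 35 had a window, 8 with the shorter and 2 with the longer form. Among the 46 genes at least 2-fold higher that belong to no chaperone list, 9 of 39 with a window held the shorter form and 0 the longer one. Neither window of Dnajb1, and not the window of Atf3, held these letters. A match is a description of the letters and not evidence of binding.

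The values that set the choice were continuous across its limit. No Hspa1a or Hspa1b UMI was found in 4996 of the IEL cells (54.7%), and the heat-shock-high cells held 75.2% of all UMIs of the pair in the library. The summed level of Hspa1a was 7271 UMIs per 1000000 (CPM) in heat-shock-high and 196 CPM in other cells, and that of Hspa1b 5760 and 183 CPM. Both genes had UMIs in 724 of the 742 cells, with Hspa1b alone in 16 and Hspa1a alone in 2. The 2 genes are near-identical copies, and how reads were split between them is not known, so the cells were chosen by their sum. Within the group, the summed share ran from 0.502% to 6.97% of UMIs with a median of 1.03%. A group cut from a graded value is a range of that value, and is not called a cell type here.

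Levels of other chaperones also ran on across the limit, with no test made. The 99 cells with a share of 0.5 to under 0.6% had 1647 CPM of Dnajb1 and 4221 CPM of Hsp90aa1. The 134 cells at 0.4 to under 0.5% had 1029 and 3700 CPM of these genes. Hspb1 was the other way round, at 56.1 CPM just inside and 108 CPM just outside.

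**Figure D1:**
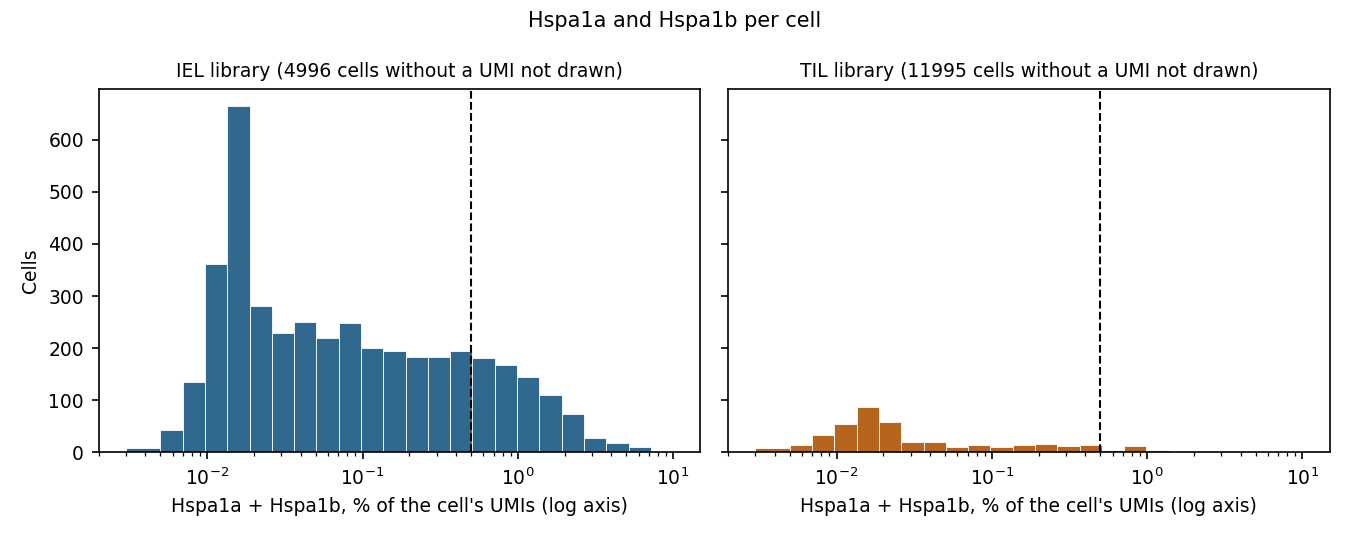
Number of cells (vertical axis) by the summed share of Hspa1a and Hspa1b in the UMIs of the cell (horizontal log axis, in percent) in the IEL and the TIL library; the dashed line is the limit of 0.5%. IEL counts lie level on both sides of the limit, with no gap, and only 21 TIL cells lie above it.

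Depth and quality were close in both groups. Their median was 6886.5 UMIs against 6857 in the other cells, with 2346.5 against 2428 genes. Mitochondrial UMIs had medians of 1.996% and 2.21%, ribosomal protein UMIs 22.1% and 23.3%, and the nuclear RNA Malat1 2.31% in both groups. Among the 270 IEL barcodes that failed the filters, 10 were above the limit (3.70%, 1.79 to 6.71), a lower share than among the cells kept. Of the kept barcodes 29 were shared with the TIL library, 4 of them heat-shock-high.

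The label of the cells was compared with markers. The γδ T markers Trdc, Tcrg-C1, Tcrg-C2, Tcrg-C4, Cd3e, Cd3g and Cd3d were all at 50 CPM or more in both groups, and summed to 4875 CPM in heat-shock-high and 4711 CPM in other cells. Trdc, the δ chain constant gene, stood at 815 and 816 CPM. Transcripts of the αβ receptor were present too, with Trac at 281 and 328 CPM and Trbc1 at 755 and 981 CPM. Trbc2 was at 921 and 1140 CPM. The coreceptor gene Cd8b1 went the other way, at 30.9 and 20.0 CPM (log2 0.63, 0.39 to 0.86). Cd4 had no UMI in heat-shock-high cells (under 0.538 CPM, the level of 3 UMIs). Macrophage markers summed to 6.82 and 2.69 CPM and epithelial markers to 61.2 and 66.3 CPM, of which Epcam made 42.5 and 39.0 CPM. None of 4 neutrophil markers had a UMI in heat-shock-high cells. Of the 4 markers given with the label, Dnajb1 and Hsph1 are described with the chaperones.

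Outside the pair used to choose them, the genes higher in heat-shock-high than in other IEL cells included cytosolic chaperones, the mitochondrial chaperonin and some stress and early response genes. Genes were called measured with at least 20 CPM in either group, which held for 5935, and called higher or lower with a ratio of at least 2-fold. By this rule 63 genes were higher (1.06%) and 14 lower (0.236%), and 13 were at least 4-fold higher. The median log2 ratio over all measured genes was -0.09. Only 29 of the 63 higher genes belonged to any gene list used here, while all lists together hold 287 of the 5935 measured genes. The other higher genes, the larger part, belonged to no list. They are named below only where they were among the 15 furthest, and what the rest have in common was not tested. Of the 63 genes, 17 belonged to the 6 chaperone lists, which hold 61 of the 5935 measured genes, and 7 of the 15 furthest did. The chaperones of these lists together made up a median of 2.90% of the UMIs of a heat-shock-high cell, with Hspa1a and Hspa1b left out, against 1.10% in other cells.

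Among Hsp70 and Hsp110 proteins, 3 of 9 measured members were at least 2-fold higher and the median log2 ratio was 0.04. Hsph1 stood at 1019 CPM in heat-shock-high and 167 CPM in other cells, 6.09-fold apart (5.89 to 6.29). Hspa8, the constitutive cytosolic Hsp70, was among the most abundant chaperones at 5448 and 1947 CPM (2.80-fold, 2.76 to 2.83). Hspa4l, another Hsp110 protein, had a log2 ratio of 1.21, and 0.96 with other cells weighted to the clusters described below. The other 6 measured members were under 2-fold, among them Hspa2 (log2 0.45), Hspa4 (0.04) and Hspa9 of mitochondria (-0.07). Hspa5, the Hsp70 of the endoplasmic reticulum, is counted in the list of stress there. It stood at 1393 and 1465 CPM (log2 -0.07).

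DnaJ cochaperones split into 4 that were higher and 15 that were not, with a median log2 ratio of -0.13 over the 19. Dnajb1, the main partner of inducible Hsp70, was at 2168 and 231 CPM (9.37-fold, 9.14 to 9.60). Its gene lies on chromosome 8 from 83608193 to 83612653 (GRCm38). Per cell, Dnajb1 had a median of 1551 CPM and a 10th to 90th percentile range of 221 to 5338 CPM in heat-shock-high cells, against a median of 115 and a 90th percentile of 574 CPM in the others, so the groups overlapped. Dnaja4 was at 391 and 63.6 CPM (6.14-fold), Dnaja1 at 1944 and 718 CPM (2.71-fold) and Dnajb4 at 121 and 45.0 CPM (2.68-fold). The J proteins of class C were all under 2-fold, between log2 -0.65 (Dnajc30) and 0.19 (Dnajc3), and Dnajb11 of the endoplasmic reticulum was at -0.35.

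Hsp90 and its cochaperones were the list with the most members higher, 6 of 13, with a median log2 ratio of 0.94. Hsp90aa1, the inducible form, stood at 5405 and 1230 CPM (4.39-fold, 4.34 to 4.45), and Hsp90ab1, the constitutive form, at 4889 and 1738 CPM (log2 1.49). Per cell, the middle 80% of heat-shock-high cells ran from 1552 to 11060 CPM of Hsp90aa1 and that of other cells from 251 to 2636 CPM. Ahsa1, which speeds the ATPase of Hsp90, had a log2 ratio of 1.37, its relative Ahsa2 one of 1.12, and Stip1, which joins Hsp70 to Hsp90, one of 1.09. With that weighting Ahsa2 (0.98) and Stip1 (0.97) were just under 2-fold, as was Stip1 (0.94) with the limit on Hspa1a and Hspa1b at 1% of UMIs. Cacybp had the second highest ratio of the list at log2 1.56. Chordc1 (0.94) and Fkbp4 (0.88) were just under the limit. Cdc37, which brings kinases to Hsp90, was level at -0.04.

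Single members stood apart in the remaining chaperone lists. Bag3, the exchange factor that also directs aggregates to autophagy, was at 155 and 13.6 CPM (11.4-fold, 10.4 to 12.6), while the other 7 exchange factors and partners lay between log2 -0.18 (Bag5) and 0.34 (St13). Hspb1 (chromosome 5, 135887919 to 135889563) had the highest ratio of all named genes, with 298 and 19.3 CPM (15.5-fold, 14.4 to 16.7). The only other measured gene placed in the list of small heat shock proteins, Hspb11, was at log2 0.13. Hspd1 and Hspe1, the chaperonin of mitochondria and its lid, lie head to head on chromosome 1, with overlapping promoter windows. They stood at 1212 and 267 CPM (4.54-fold, 4.41 to 4.67) and at 1449 and 465 CPM (3.11-fold, 3.04 to 3.19). The 8 measured subunits of the cytosolic chaperonin lay between -0.07 (Cct5) and 0.31 (Cct6a).

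**Figure D2:**
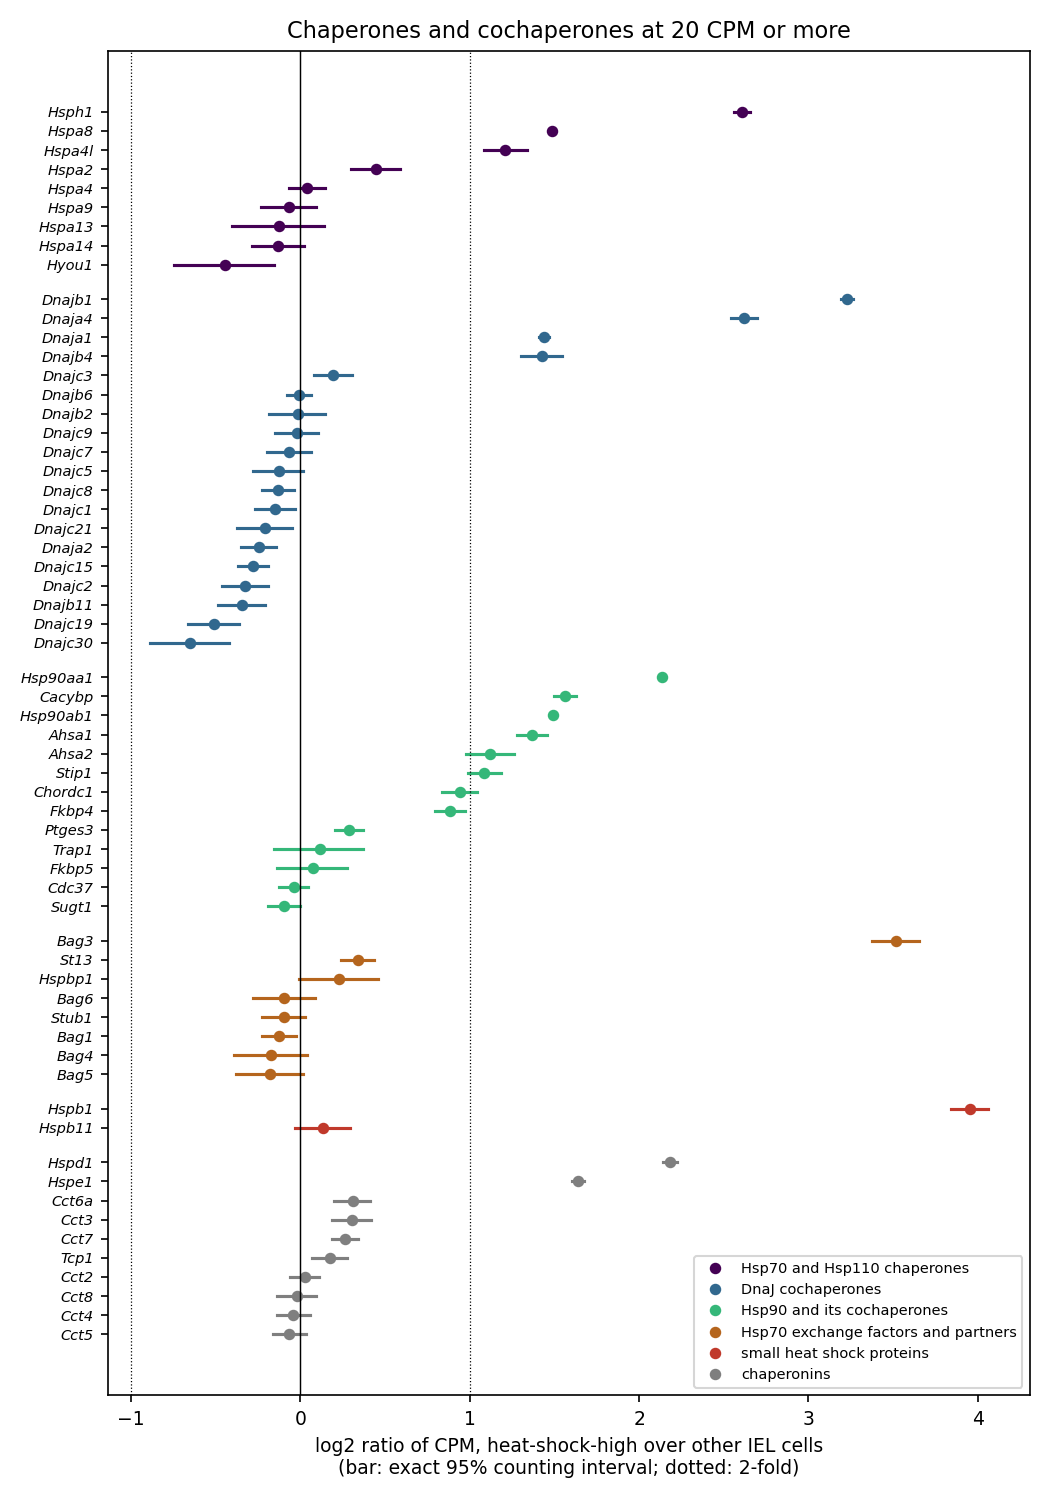
log2 ratio of summed CPM, heat-shock-high over other IEL cells (horizontal axis), for all 61 measured genes of the 6 chaperone lists, with exact 95% counting intervals as bars and colours for lists; dotted lines mark 2-fold. 17 genes lie right of the upper dotted line, with no gap at it: Stip1 and Ahsa2 lie just right, and Chordc1 and Fkbp4 just left. Many others lie around 0, and Hspb1, Bag3 and Dnajb1 lie furthest.

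Lists of other systems of protein quality control held few genes apart, as did all measured genes, of which 1.06% were higher and 0.236% lower. None of 25 proteasome subunits reached 2-fold either way (median log2 -0.16, next to -0.09 over all genes), and none of 17 genes of stress in the endoplasmic reticulum did (median -0.15). In the list of ubiquitin and aggregate handling 1 of 11 was higher, Zfand2a, a zinc finger protein induced by arsenite, at 51.9 and 13.4 CPM (log2 1.95). Ubb, a ubiquitin gene, was below the limit at 0.85. Hsf1 itself was level at 51.0 and 52.7 CPM.

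Some stress and early response genes were higher as well. Atf3, a stress-induced repressor of the ATF family, stood at 264 and 26.7 CPM (9.88-fold, 9.21 to 10.6), and was the 1 gene of 8 in the list of integrated and oxidative stress at 2-fold or more. Phlda1, a pleckstrin homology protein induced on T cell activation, was at 217 and 25.9 CPM (8.39-fold, 7.78 to 9.05). Of 23 immediate early genes 3 were higher, with a median log2 ratio of 0.49. Jun was the most abundant of these at 4633 and 1431 CPM (3.24-fold, 3.19 to 3.28), and Klf2 (log2 1.63) and Egr1 (1.02) were the others. Egr1 was under 2-fold in 5 alternatives, down to 0.75 without cluster 8. Fos, the partner of Jun in AP-1, was at 2448 and 2145 CPM (log2 0.19), far less apart than Jun. Nr4a1, an early gene of receptor signalling, was just under the limit at 0.96. None of 8 NF-kB feedback genes reached 2-fold (median 0.36), next to 1.06% higher and 0.236% lower over all measured genes.

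In the list of p53 targets 1 of 8 was higher, the cell cycle inhibitor Cdkn1a at 107 and 27.2 CPM (log2 1.97). The BH3-only genes Pmaip1 (Noxa, log2 1.26) and Bbc3 (Puma, 1.20) were the 2 of 14 genes of apoptosis and survival at 2-fold or more. They are counted only in that list, and not among the 8. Mcl1, which protects from apoptosis, was at 0.44. Further genes among the 15 furthest were Ctla2a, an inhibitor of cathepsins, at 101 and 17.4 CPM, Rgs16, which ends G protein signals, at 48.3 and 9.89 CPM, and Cxcr4, a chemokine receptor, at 24.2 and 6.14 CPM. The transporter gene Slc5a3, which takes up myo-inositol, was at 78.2 and 17.6 CPM and the potassium channel gene Kcnk5 at 75.4 and 17.0 CPM.

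The cytotoxic effector genes of intraepithelial lymphocytes were all under 2-fold apart, and cytokines and chemokines had a median log2 ratio of 0.60. Of 11 cytotoxic effectors 0 reached 2-fold either way, with a median of 0.06: Gzmb stood at 3654 and 3684 CPM, and Gzma at 7870 and 9697 CPM (log2 -0.30). The furthest members lay on both sides of 0. They were Tnfsf10 (0.70) and Prf1 (0.55) above it, and Serpinb6b (-0.68) and Serpinb9 (-0.52) below it. Cd8a was at 585 and 579 CPM. Of 8 cytokines and chemokines 2 were higher, Ccl3 at 270 and 81.1 CPM (log2 1.74) and Ifng at 157 and 58.1 CPM (log2 1.43), while Ccl4 was at 0.59. Of 17 residence genes 0 were apart, the highest being Prdm1 at 0.88. Id3 was the 1 of 5 naive and memory-like genes that was higher (log2 1.40). Of the 4 recirculating markers Klf2 made up nearly all of the sum, at 241 of 244 CPM in heat-shock-high and 78.0 of 86.4 CPM in other cells. Rsad2 was the 1 of 8 interferon response genes at 2-fold or more (log2 1.21), and was under 2-fold with Hspa1b alone at 0.25% (0.92) and as a mean over cells (0.93). No gene reached 2-fold among 14 of T cell receptor signalling, 6 of the cell cycle, 11 of glycolysis and hypoxia and 18 of oxidative phosphorylation, with medians of -0.02, 0.00, 0.04 and -0.14. Over all measured genes 1.06% were higher and 0.236% lower, so counts of 0 in lists of these sizes are near that share.

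The 14 lower genes were mostly expressed at a low level. The 10 lowest named genes had 8.26 to 32.1 CPM in heat-shock-high and 21.2 to 68.4 CPM in other cells. They were Myo16 (log2 -1.36), Ramp3, a partner of calcitonin-type receptors (-1.32), the linker histones H1f0 (-1.27) and Hist1h1b (-1.18), Gnb4, a G protein subunit (-1.17), the Wnt ligand gene Wnt11 (-1.15), the activin receptor gene Acvr2a (-1.15), the lamin gene Lmna (-1.14), Pdcd1, which encodes PD-1 (-1.10), and Ccdc30 (-1.09). Pdcd1 rested on 58 UMIs in heat-shock-high cells, and was the 1 of 8 inhibitory receptors beyond 2-fold. Named after their values were seen, Sh2d2a, an adaptor of T cell signalling, was the most abundant of the 14 at 472 and 957 CPM, and Zeb1, a zinc finger repressor, stood at 80.0 and 166 CPM. Of the 10 lowest named genes, 9 were under 2-fold in at least 1 alternative, Ramp3 being the exception. The count of 14 depended on the limit and the comparison cells: it was 42 with the limit at 1% of UMIs and 4 when the other cells were weighted to the clusters of the heat-shock-high cells.

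The same genes were followed over all IEL cells in 6 classes of the summed Hspa1a and Hspa1b share. The classes held 4996 cells with no UMI, 2452 under 0.1%, 938 from 0.1%, 363 from 0.5%, 266 from 1% and 113 from 2%. Of the 15 furthest genes, 13 had a higher level in every next class, against 2.46% of all measured genes, the exceptions being Ctla2a and Cxcr4. The classes use the value that chose the cells, so these counts are a description. Dnajb1 had 110, 243, 806, 1745, 2279 and 3411 CPM in this order, 31.1-fold from first to last (29.6 to 32.7). Hspb1 had 4.40, 18.5, 95.4, 236, 334 and 433 CPM, 98.4-fold in all (81.3 to 120), with its largest fold steps below the limit of the group. Bag3 had 9.03, 12.7, 38.4, 89.6, 189 and 306 CPM. Jun went from 1211 to 7640 CPM, and Ifng from 55.3 to 279 CPM.

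Some genes that were close between the groups also had similar levels in the first and the last class. Hspa5 had 1495 CPM in the first and 1443 CPM in the last class, and Cd8a 589 and 567 CPM. Fos had 2056 and 2711 CPM, and Gzmb 3838 and 4845 CPM. Acvr2a was lower in every next class, from 69.0 to 16.7 CPM, as were 5 of the 10 lowest genes in all, against 7.51% of measured genes. The chaperone lists made up a median of 0.998, 1.20, 1.91, 2.58, 3.06 and 3.94% of UMIs per cell. Within the 742 cells, the Hspa1a and Hspa1b share and the chaperone share had a Pearson r of 0.39 and a Spearman rho of 0.37. These describe cells of 1 library, and both shares have the same total.

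**Figure D3:**
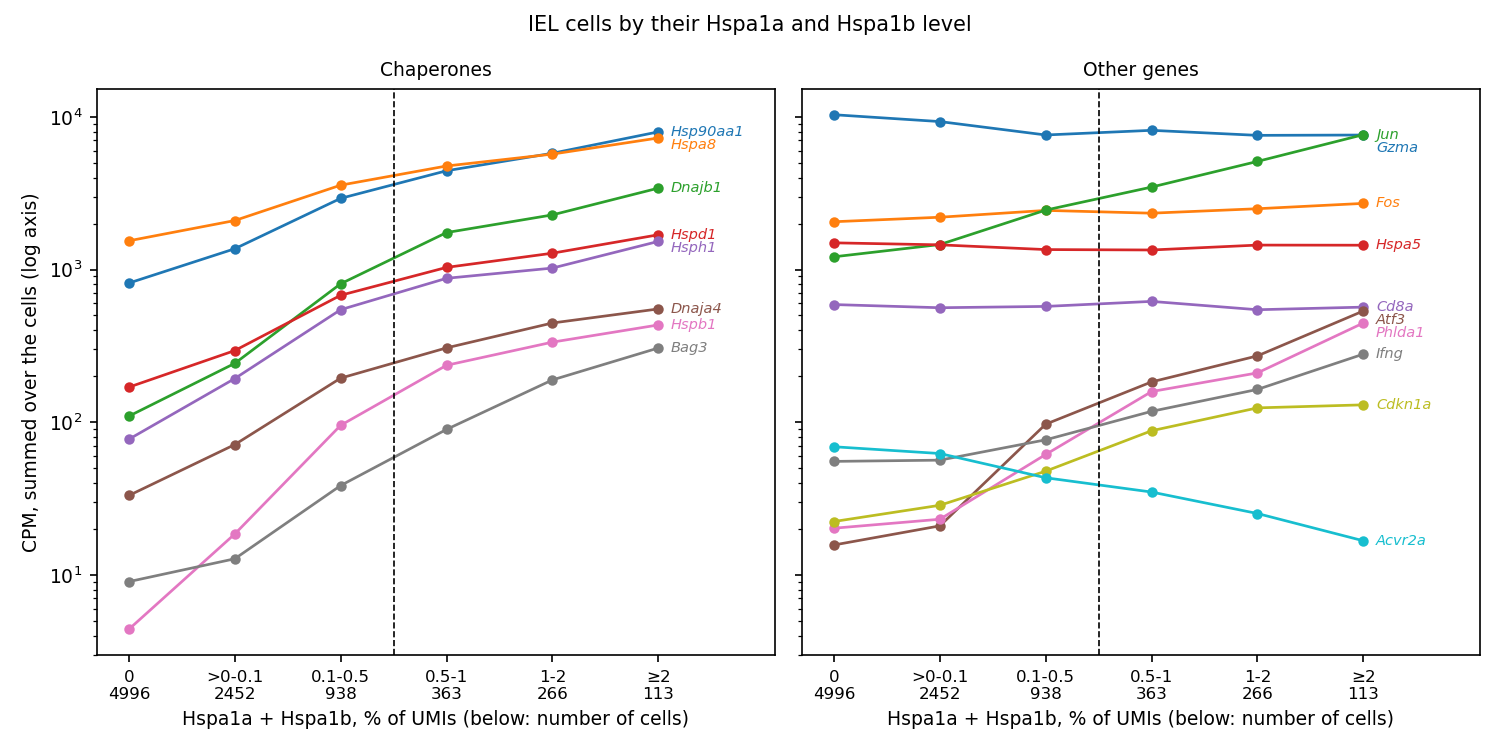
Summed CPM (vertical log axis) of 8 chaperones (left) and 10 other genes (right) in 6 classes of IEL cells by their summed Hspa1a and Hspa1b share, with the number of cells under each class; heat-shock-high cells lie right of the dashed line. Dnajb1 goes from 110 to 3411 CPM and Jun from 1211 to 7640 CPM, while Hspa5 and Cd8a stay level.

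Where the cells lay among the IEL cells was described with 13 clusters, numbered by size and built without the chaperone, stress, early response and NF-kB genes of the lists. Heat-shock-high cells were found in all 13. Cluster 8 held 243 of them, 41.2% of its 590 cells (37.2 to 45.3), and so 32.7% of all heat-shock-high but 4.14% of other cells. In the other 12 clusters the share ran from 2.62% to 13.0%. The leading genes of cluster 8 include Ccl3, Bag3, Dnajb1, Phlda1, Ifng and Atf3, so the cluster is not independent of the genes described. Clusters 4 and 5, with low Gzma (323 and 375 CPM) and low Cd8a (45.8 and 223 CPM), held 106 and 55 of the cells (10.1% and 6.56%). Without cluster 8 the share of heat-shock-high cells was 5.84%.

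Within clusters, the difference in chaperones was found again in each of the 8 clusters with at least 30 heat-shock-high cells. Dnajb1 had log2 ratios of 1.95 to 3.53, Hsph1 of 1.59 to 3.45, Hsp90aa1 of 1.47 to 2.66, Bag3 of 2.43 to 4.13 and Hspb1 of 1.07 to 5.56, each lowest in cluster 8. Of the measured genes 13 (0.219%) were at 2-fold or more in all 8, and 8 of these are chaperones: Hspb1, Bag3, Dnajb1, Dnaja4, Hsph1, Hspd1, Hsp90aa1 and Hsp90ab1. The other 5 were Atf3 (2.22 to 4.74), Phlda1 (1.54 to 3.52), Zfand2a (1.41 to 2.49), Slc5a3 (1.24 to 3.12) and Kcnk5 (1.36 to 3.15). Jun ran from 0.80 to 1.85. Ifng (-0.09 to 1.76), Ccl3 (0.13 to 3.29) and Klf2 (-0.32 to 2.50) were each highest in cluster 4, and had at least 1 cluster near or below 0. Ctla2a was at log2 2.88 in cluster 4 but -0.81 in cluster 3, on 2 UMIs there. With other cells weighted to the clusters of the heat-shock-high cells, Ccl3 was at log2 0.61 and Ifng at 0.94, both under 2-fold (Ifng also at 0.94 without cluster 8), whereas Dnajb1 stood at 2.65 and Jun at 1.40.

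The lower genes were less even over clusters. Myo16, H1f0 and Gnb4 were below 0 in all 8 clusters, and Acvr2a and Ccdc30 in 7. Lmna was below 0 in all 7 clusters with UMIs in both groups. In cluster 1 it had no UMI in heat-shock-high cells, against 134 in the others. Pdcd1 was below 0 in 3 and above 0 in 3 of the 6 clusters with UMIs in both groups. In cluster 4, which had the most Pdcd1 UMIs, it was at 23.0 and 106 CPM (log2 -2.21, -3.02 to -1.50), and in cluster 8 it rested on 10 UMIs against 1.

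**Figure D4:**
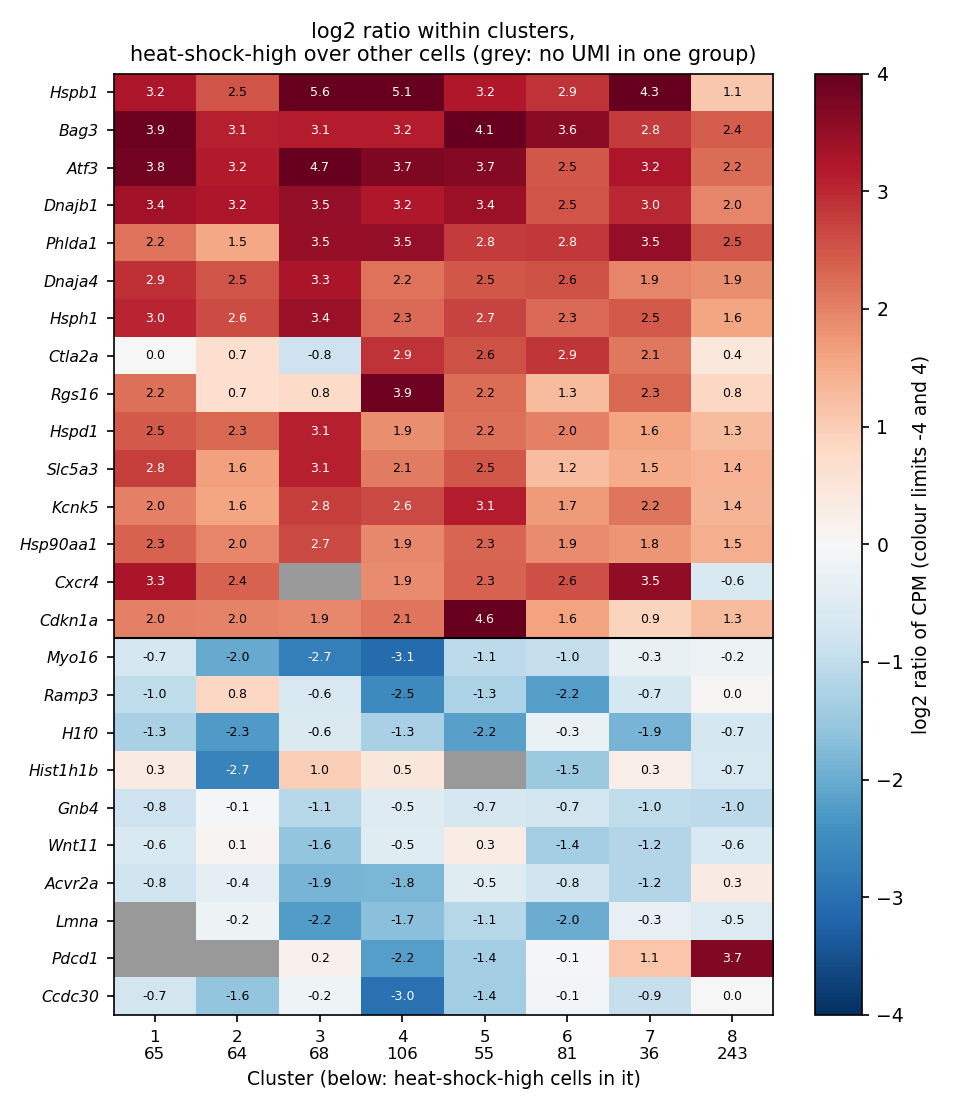
log2 ratio of CPM, heat-shock-high over other cells, within each of 8 clusters (columns, with the number of heat-shock-high cells below) for the 15 genes furthest higher (above the line) and the 10 furthest lower (below it); red is higher, blue lower and grey means no UMI in one group. Chaperone rows are red in every cluster, and the rows of Ctla2a, Cxcr4, Pdcd1 and Hist1h1b change sign between clusters, as do some others of low count.

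The tumor library, which had no part in the choice of the cells, was read under the same rule. It held 21 such cells of 12407, or 0.169% (0.105 to 0.259), and 96.7% of its cells had no UMI of the pair against 54.7% in IEL. The median chaperone share in the 21 cells was 2.07% against 0.867% in the other TIL cells. These cells had 162688 UMIs in all, so single genes rested on few of them. Library, tissue and preparation cannot be told apart in the difference between the shares.

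Of the 15 genes furthest higher in IEL, 12 were above 0 and 11 at 2-fold or more in TIL as well. Over all 6107 genes measured in TIL, 45% were above 0, 11.4% were at least 2-fold higher and 13.6% at least 2-fold lower. Hsph1 was at 842 against 38.0 CPM (log2 4.47, on 137 UMIs) and Dnajb1 at 756 against 68.9 CPM (3.46, on 123 UMIs). Hspd1 was at 3.26, Hspe1 at 2.47 and Hsp90aa1 at 2.53. Hspb1 rested on 5 UMIs (30.7 against 1.48 CPM) and Bag3 on 8 (49.2 against 6.50 CPM). Jun was at 3547 against 488 CPM (2.86), and Fos, which was nearly level in IEL, at 1088 against 178 CPM (2.61). Phlda1, Cxcr4 and Cdkn1a were below 0. Of the 10 lowest genes, 8 had UMIs in the 21 cells, and 7 of them were at least 2-fold lower. The intervals of 5 lay below 0. Myo16 and Ccdc30 rested on 1 UMI each in the 21 cells, and H1f0 and Gnb4 on 2 each. The 21 cells also differed from other TIL cells in type, with Cd8a at 295 against 62.6 CPM and Gzma at 7247 against 4080 CPM, and the part of this in the ratios was not tested.

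**Figure D5:**
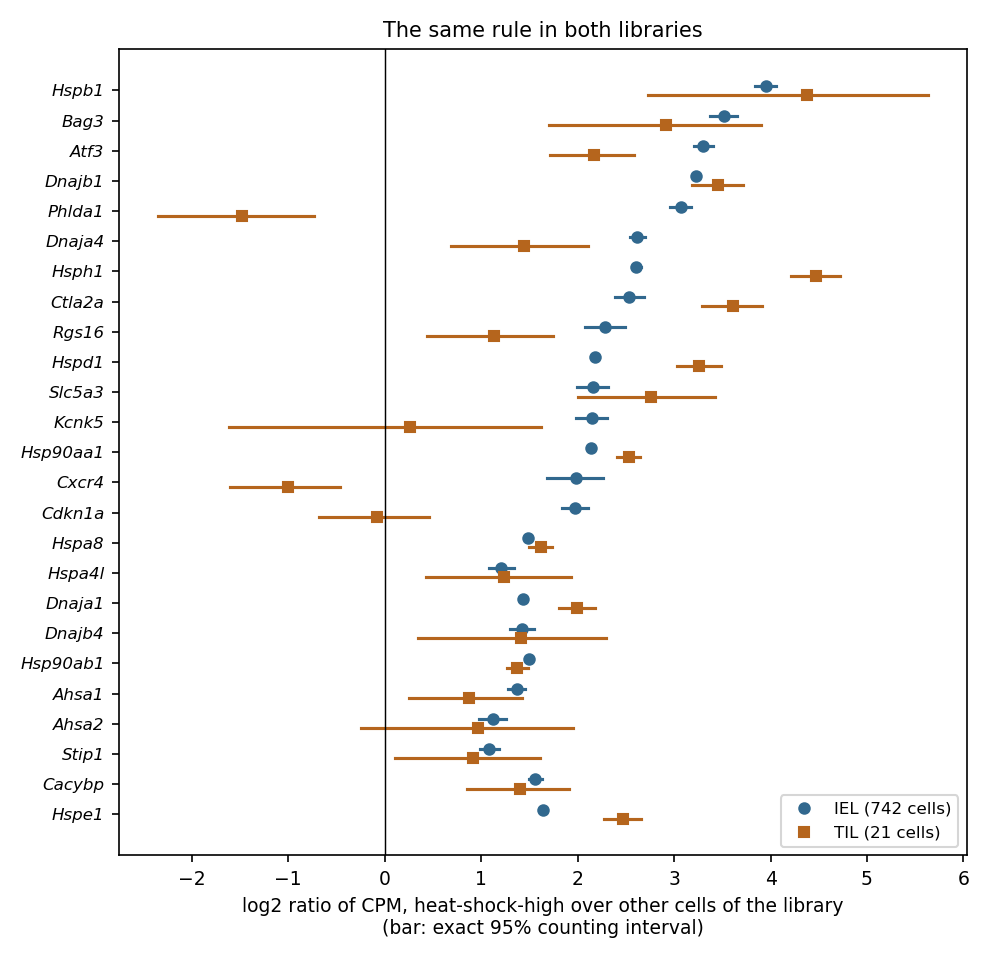
log2 ratio of CPM, heat-shock-high over other cells of the same library (horizontal axis), in IEL (circles, 742 cells) and TIL (squares, 21 cells), with exact 95% counting intervals, for the 15 genes furthest higher in IEL and the other chaperones at 2-fold or more there. The chaperones lie right of 0 in both libraries, while Phlda1 and Cxcr4 lie left of 0 in TIL.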

How the data were processed

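Droplet single-cell libraries (10x Genomics 3′ v3) gave 1 IEL and 1 TIL matrix. The deposited values are raw UMI counts per gene and barcode, per the file headers, with Cell Ranger 6.1.1 and mm10 named in the submitters' processing notes; the calling of cells from barcodes is not given in the sources used here. Groups follow the labelled tissue. Cells were kept with at least 500 genes, 1000 UMIs and at most 10% mitochondrial UMIs. Counts were summed over cells and given as CPM; ratios have exact conditional 95% intervals and shares exact Clopper-Pearson intervals (scipy 1.17.1). The heat-shock-high cells had 5572077 UMIs and the other IEL cells 63189543. No test across cells was made. The calculation was tested on simulated data. IEL cells were clustered with scanpy 1.11.5 and igraph 0.11.9 (2000 variable genes, 30 components, 15 neighbours, resolution 1.0). Doublets were not removed by a caller; leaving out cells above 2 times the median UMIs was an alternative.

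Named were the 15 highest and 10 lowest genes, without Hspa1a, Hspa1b, ribosomal, mitochondrial, immunoglobulin, haemoglobin and sex-linked genes, unnamed gene models and receptor segments, the 4 members of each of 26 lists furthest from 0, all chaperone list members at 20 CPM, and a short list of genes whatever their ratio. Marker genes of the labelled cells are given as well. The members, lists and rules were chosen with earlier results of these data known. Gene positions are GENCODE coordinates on GRCm38, and promoter windows are from RefSeq. Alternatives changed the Hspa1 limit, the filters, the depth, the scaling, the comparison cells, the 20 CPM floor and the 2-fold limit.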

Additional observations from a re-analysis of the deposited data

Results flagged for a closer look

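Intervals of 12 named genes lay on opposite sides of 0 in the 2 libraries; the difference between libraries was not tested, and the TIL side rests on 21 cells. Phlda1 had a log2 ratio of 3.07 in IEL and -1.48 in TIL (14 UMIs, 86.1 against 240.2 CPM). Cxcr4 was at 1.98 in IEL and lower in TIL (27 UMIs, 166 against 332 CPM). Acvr2a was at -1.15 in IEL and 1.45 in TIL (7 UMIs). Mt1, a metallothionein gene, was at 0.73 in IEL and -2.20 in TIL (6 UMIs), and Serpinb6b, a serine protease inhibitor gene, at -0.68 and 0.66 (43 UMIs). The other 7 were closer to 0 in IEL. Gzma was at -0.30 in IEL and 0.83 in TIL (1179 UMIs), Ptprc at -0.19 and 1.06 (144 UMIs), Nfkbia at 0.43 and -0.79 (148 UMIs), Ctla4 at 0.29 and -0.60 (102 UMIs), Ptges3 at 0.29 and -0.94 (12 UMIs) and Hif1a at 0.16 and -2.09 (37 UMIs). Mt2 was at 0.36 in IEL and had no UMI in the 21 TIL cells, against 37.1 CPM in the other TIL cells.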

How the results depend on the processing

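The share of heat-shock-high IEL cells was 12.5% with the limit at 0.25% of UMIs, 4.15% at 1%, 8.76% with Hspa1a alone at 0.25%, 7.36% with Hspa1b alone at 0.25% and 5.84% without cluster 8, an alternative chosen after seeing the data. In TIL it was 0.427% with the limit at 0.25% and 0.0403% at 1%. The count of higher genes was 148 at 1.5-fold and 46 to 76 under the other alternatives, which had 45 to 63 of the 63 genes in common with it. The count of lower genes was 8 with the limit at 0.25%, 42 at 1%, 6 with Hspa1a alone, 22 with Hspa1b alone, 22 with looser filters, 4 with other cells weighted to the clusters, 7 at 50 CPM, 137 at 1.5-fold and 7 without cluster 8; the cause was not tested, save that the 1.5-fold and 50 CPM limits change it by construction. All 15 highest genes stayed at 2-fold or more in 210 values over these alternatives, of which 75 moved by more than the counting interval. Of 140 values for the 10 lowest genes, 25 were under 2-fold, and Ramp3 alone had none of them. None of the 45 named genes called higher or lower changed sign in these alternatives. Called genes outside the naming rule were not followed. Of the other named genes 26 did change sign, such as Stmn1 (-0.51, and 0.35 with the limit at 0.25%) and Mki67 (-0.56 and 0.15). The median of the Hsp70 and Hsp110 list did so too (0.04, -0.07 with the limit at 1% and -0.01 with Hspa1b alone). No paired analysis was possible because each tissue has 1 library. Depth limits the TIL values, with 162688 UMIs in the 21 cells.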
